A study of Homo sapiens with 24 samples.

Results

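The genes described here were 9 plasma-membrane amino acid transporters tied to the cellular response to nutrients: SLC7A5, SLC3A2, SLC7A1, SLC7A2, SLC38A1, SLC38A2, SLC1A4, SLC1A5 and SLC6A9. They were taken as a list of symbols, matched through Ensembl identifiers without version, and make up 9 of the 61533 genes in the deposited tables. The cystine carrier SLC7A11 was left out. All 9 genes passed the low-count filter in all 4 cell lines. RNA was sequenced from Cal27, A375, Fadu and Hth83 cells that had received 60 s of Piezo-CAP (CAP), a cold atmospheric plasma made by a piezoelectric device, and from untreated cells of the same line (Control, 0 s), with RNA taken 24 h later and 3 libraries in each of the 8 groups. The labels give the genotype of all 8 groups as WT. Cal27, A375 and Hth83 grew in DMEM and Fadu in MEM, each with 10% fetal bovine serum, so line and medium cannot be told apart for Fadu. Cal27 was derived from a tongue carcinoma and Fadu from a hypopharyngeal one, both squamous, whereas A375 is a melanoma line and Hth83 bears the name of an anaplastic thyroid carcinoma line, although the labels call all of them head and neck cancer cells.

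Amino acids enter cells through carriers of the solute carrier (SLC) families, several of which are themselves under nutrient control. When amino acids run short, the kinase GCN2 slows general translation while the transcription factor ATF4 accumulates, and ATF4 binds C/EBP-ATF elements near transporter and synthesis genes. Imported leucine, arginine and glutamine in turn activate mTORC1, the kinase complex that drives protein synthesis and growth, and tumour cells often carry high levels of SLC7A5 and SLC1A5.

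All 9 are protein-coding genes. By GENCODE 29 on GRCh38, SLC7A5 lies at chr16:87830023-87869488, SLC3A2 at chr11:62856102-62888875, SLC7A1 at chr13:29509410-29595688, SLC38A1 at chr12:46183063-46270017, SLC38A2 at chr12:46358189-46372867, SLC1A4 at chr2:64988477-65023865, SLC1A5 at chr19:46774883-46788594 and SLC6A9 at chr1:43991500-44031467. The promoter sequences of these genes show which of them carry letters of the ATF4 element close to a start. The motifs searched were TGATGNAA, the core of the C/EBP-ATF element, and CACGTG, the E-box bound by MYC and related factors, on both strands, in RefSeq windows of 300 bases (250 before and 50 after a start, GRCh38.p14). RefSeq gave 14 such windows for 8 of the 9 genes, and none was used for SLC7A2. The ATF4 element core was found in 5 of the 14 windows, 1 each in SLC1A4, SLC3A2, SLC38A1, SLC7A1 and SLC1A5, against 3.62% of all 35116 windows. The E-box was found in 2 of the 14 windows, 1 in SLC7A5 and 1 in another window of SLC1A5, against 7.26% of all windows. No match to one motif overlapped a match to the other. The windows of SLC38A2 and SLC6A9 held neither set of letters. Sequence outside the windows, introns included, was not searched, so a gene without a match here may carry the element elsewhere. Counted from the start that defines each window, the match to the core began at position -7 in SLC1A4, -4 in SLC38A1, 8 in SLC7A1, 38 in SLC3A2 and -97 in SLC1A5. A match is a description of these letters, not a shown binding site. The stretches around the matches are given because they set the genes with the ATF4 element core in a window beside those without it there. The values of both follow. Each is written 5′ to 3′ on the strand of the gene, with the match in capitals, which reads as the reverse complement of the core in SLC1A4 and SLC3A2.
SLC1A4, chr2:64989339-64989418, plus strand: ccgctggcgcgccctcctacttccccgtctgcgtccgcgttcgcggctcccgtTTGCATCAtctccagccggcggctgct
SLC3A2, chr11:62881719-62881748, plus strand: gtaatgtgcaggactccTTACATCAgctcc
SLC38A1, chr12:46266497-46266576, minus strand: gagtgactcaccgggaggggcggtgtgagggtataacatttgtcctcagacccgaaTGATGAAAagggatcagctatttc
SLC7A1, chr13:29595669-29595748, minus strand: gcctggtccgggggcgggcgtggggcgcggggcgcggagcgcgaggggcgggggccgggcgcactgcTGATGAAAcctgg
SLC1A5, ATF4 element core, chr19:46784878-46784937, minus strand: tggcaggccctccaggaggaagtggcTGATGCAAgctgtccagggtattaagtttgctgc
SLC7A5, E-box, chr16:87869606-87869663, minus strand: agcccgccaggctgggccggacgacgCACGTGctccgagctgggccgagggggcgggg
SLC1A5, E-box, chr19:46787312-46787369, minus strand: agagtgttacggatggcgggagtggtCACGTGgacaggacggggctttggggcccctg

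The labels name the lines, and their markers were checked in untreated libraries. The melanocyte factor SOX10 stood at 956 ± 14.5 TPM in A375 (SD, n = 3) and at no more than 0.0494 TPM on average in the other lines, while the squamous factor TP63 averaged 14.7 TPM in Cal27, 22.4 TPM in Fadu and 20.0 TPM in Hth83. Of 8 thyroid follicle markers 1, PAX8 (27.8 ± 0.358 TPM), reached 10 TPM in Hth83 and 9 of 10 squamous markers did, so the identity of that line is in doubt and it is called Hth83 here after its label. The summed squamous markers stood at 12658 to 13643 TPM in CAP libraries of Fadu, against 23203 to 23891 TPM in its Control libraries, with 7 of the 10 markers lower by the test used below and 3 higher. In Hth83 they stood at 9755 to 10722 TPM with CAP and 11289 to 11760 TPM in Control libraries (7 lower, 3 higher), and in Cal27 at 4065 to 4246 TPM with CAP and 5531 to 5918 TPM in Control libraries (8 lower, 1 higher). The summed melanocyte markers stood at 782 to 814 TPM in CAP libraries of A375, against 949 to 979 TPM in its Control libraries. In that line SOX10 alone of the 7 reached 10 TPM, so the sum is nearly all SOX10, and of 5 markers tested 1 was lower and 0 were higher (median log2 fold change 0.06). The part of these markers in the transporter results was not tested. Summed leukocyte markers were at most 54.3 TPM in any library. Total counts ran from 27.9 to 49.5 M (mega) per library, and the biological coefficient of variation was 5.07% to 6.17%. In Cal27 total counts ran from 32.3 to 35.6 M in CAP libraries and from 27.9 to 30.1 M in Control libraries. CAP and Control libraries overlapped in depth in the other lines. The part of depth in the Cal27 results was not tested. The labels do not record separate cultures for the libraries of a group, and the p-values thus measure the spread between these libraries, which may be technical.

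In untreated cells, SLC38A2 and SLC7A5 were the most abundant of the 9 transcripts per length in Cal27, Fadu and Hth83, SLC38A2 and SLC1A5 in A375, and SLC7A2 was the least abundant in all 4 lines. The levels that follow are the TPM the authors deposited in a separate table per line, each scaled to the same total, and the plot of untreated levels shows each library. SLC7A5 encodes LAT1, the light chain that carries leucine and other large neutral amino acids. It averaged 1335 ± 8.02 TPM in Hth83, 792 ± 16.6 TPM in Cal27, 652 ± 5.19 TPM in Fadu and 223 ± 12.3 TPM in A375 (SD, n = 3 each). The lines did not overlap. In A375 it ranked after SLC1A5, which averaged 258 ± 11.9 TPM there. SLC38A2 encodes SNAT2, a sodium-coupled carrier of alanine, glutamine and other small neutral amino acids. It averaged 1367 ± 30.5 TPM in Cal27, 814 ± 28.6 TPM in A375, 770.3 ± 23.5 TPM in Fadu and 680.0 ± 28.7 TPM in Hth83. SLC7A2, an inducible arginine carrier, averaged 8.08 ± 0.206 TPM in A375, 3.28 ± 0.453 TPM in Hth83, 0.611 ± 0.0525 TPM in Fadu and 0.363 ± 0.0578 TPM in Cal27.

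**Figure D1:**
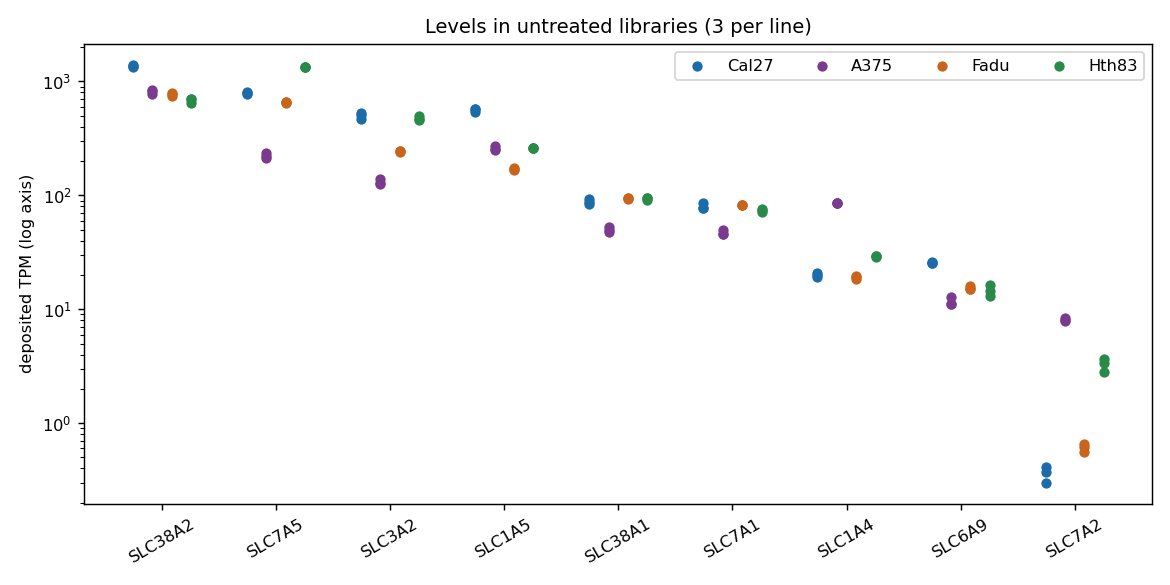
Deposited TPM (log axis) of the 9 transporters in untreated libraries of Cal27, A375, Fadu and Hth83; each point is 1 library, 3 per line. SLC7A5 is lowest in A375 (223 TPM on average), whereas SLC1A4 and SLC7A2 are highest there.

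Untreated levels differed between most lines. In 1 edgeR fit of all 24 libraries, 9 of the 9 transporters differed between Cal27 and A375 (76.8% of all 23642 genes tested did), 8 between Cal27 and Fadu (69.6%), 9 between Cal27 and Hth83 (68.7%), 8 between A375 and Fadu (75.6%), 8 between A375 and Hth83 (71.7%) and 6 between Fadu and Hth83 (69.4%). The pairs that missed the threshold were SLC38A2 among A375, Fadu and Hth83, SLC7A1 and SLC6A9 between Fadu and Hth83, and SLC7A2 between Cal27 and Fadu (log2 ratio -0.36 ± 0.17 SE, edgeR quasi-likelihood test, Benjamini-Hochberg adjusted p = 0.0519). That SLC7A2 pair passed without Control replicate 1 of Cal27 (edgeR adjusted p = 0.0414), without CAP replicate 1 of Fadu (0.0490) or without Control replicate 3 of Fadu (0.0469), and by RLE size factors, by library size, with a filter at a CPM of 1 and on TPM.
Other pairs depended on the scaling too. On log2(TPM + 1) with limma the calls were lost for SLC7A1, SLC38A1 and SLC1A4 between Cal27 and Fadu, for SLC3A2, SLC7A1 and SLC38A1 between Cal27 and Hth83, for SLC1A5 between A375 and Hth83 and for SLC38A1 between Fadu and Hth83. By library size SLC1A5 between A375 and Hth83 and SLC38A1 between Fadu and Hth83 lost theirs. SLC38A2 gained a call between A375 and Hth83 and between Fadu and Hth83 by both of these, as did SLC7A1 between Fadu and Hth83.
The largest untreated difference was that of SLC7A2, with a log2 ratio of -3.99 ± 0.13 (SE) for Cal27 over A375. SLC7A5 had a log2 ratio of -2.82 ± 0.08 for A375 over Hth83, the largest among the other 8, and was 2.32 ± 0.07 log2 units higher in Cal27 than in A375. SLC3A2 was 2.43 ± 0.07 log2 units higher in Cal27 than in A375. SLC1A4, a neutral amino acid exchanger, was higher in A375, with a log2 ratio of -1.60 ± 0.05 for Cal27 over A375 and of 2.07 ± 0.05 for A375 over Fadu. SLC1A5, the glutamine exchanger ASCT2, was 1.61 ± 0.04 log2 units higher in Cal27 than in A375 and 2.12 ± 0.04 higher than in Fadu.
The place of SLC38A2 rests on the gene length behind TPM, and the sources used here do not state that length. The length of SLC38A2 implied by the deposited counts and TPM was 0.369 of that of SLC7A5, whereas the exon union in GENCODE 29 gives 1.39. With the union length SLC7A5 ranked 1 of the 9 in all 4 lines and SLC38A2 ranked 3, 2, 2 and 3 in Cal27, A375, Fadu and Hth83, and SLC7A2 ranked 9 in all 4 lines with either length. No length enters the comparisons of CAP with Control on counts.

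The comparisons of CAP with Control asked which transporter transcripts differed 24 h after plasma. Most of them were lower after plasma, and the amount differed between lines. In the text that follows, rose and fell mark genes that edgeR's quasi-likelihood test called within a line at a Benjamini-Hochberg adjusted p below 0.05, and levels are CPM scaled within that line by the TMM method. In Hth83 8 of the 9 fell and 1 rose (SLC7A2), with a median log2 fold change of -0.85. In Fadu 8 fell and 0 rose (median -0.68), and SLC7A2 missed the threshold. In A375 7 fell and 0 rose (median -0.33), and SLC7A5 and SLC38A1 missed it. In Cal27 5 fell and 3 rose (SLC7A1, SLC7A2 and SLC38A1), with a median of -0.13, and SLC1A4 missed it.
Changes of this kind were widespread among all genes. Of all genes tested, 50.1% passed the threshold in Hth83 (25.9% higher, 24.2% lower), 53.3% in Fadu (26.3% higher, 27.0% lower), 50.5% in A375 (25.7% higher, 24.8% lower) and 45.1% in Cal27 (21.9% higher, 23.2% lower), and their median log2 fold change was 0.00 in Hth83, 0.01 in Fadu, -0.02 in A375 and 0.00 in Cal27. In these bulk samples, fewer cells with a transcript and less of it per cell cannot be told apart.
The scaling moved the balance of calls in all 4 lines. In Cal27 48.5% of all calls were higher by TMM, 62.4% by library size alone and 83.4% on log2(TPM + 1) with limma, where the median of all genes lay 0.20 above that by TMM. On that TPM scale 3 of the 8 transporters tested in Cal27 were called higher (SLC7A1, SLC38A1 and SLC1A4) and 0 lower, and SLC7A2 was not tested. The median of the 8 was 0.12 below that of all genes, against 0.13 below by TMM for all 9. In A375 50.9% of calls were higher by TMM and 39.8% by library size, with 8 of the 9 transporters lower by library size. In Fadu 49.3% were higher by TMM and 61.8% by library size, a shift of 0.10 in the median of all genes that left 7 transporters lower. In Hth83 51.7% were higher by TMM, 58.1% by library size and 60.9% on TPM, with 8 transporters lower and 1 higher each time.

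**Figure D2:**
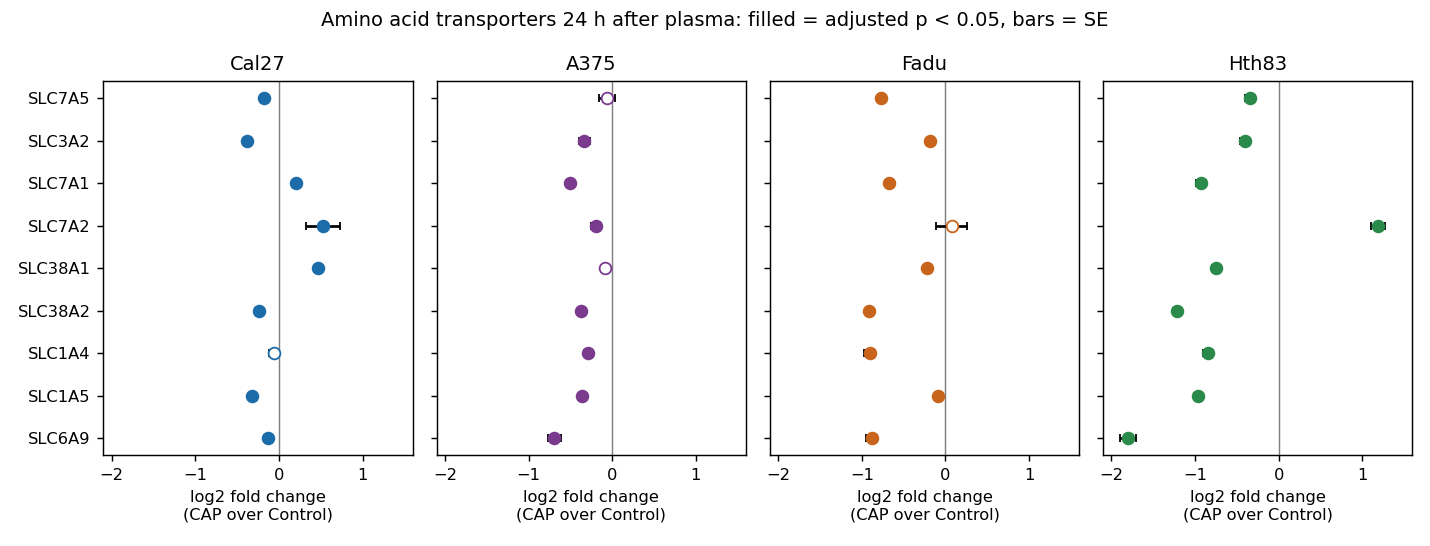
Log2 fold change, CAP over Control, of the 9 transporters in each line (horizontal axis), with SE as bars. Filled points have an adjusted p under 0.05; in Hth83 8 of the 9 lie left of 0 and SLC7A2 right of it, while in Cal27 3 filled points lie right of 0.

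The LAT1 heterodimer needs both SLC7A5 and SLC3A2, whose product CD98 is the heavy chain that brings the light chain to the membrane. In Fadu SLC7A5 had 1193, 1108 and 1111 CPM in CAP libraries, against 1969, 1939.9 and 1923 CPM in Control libraries. The groups stood far apart, and SLC7A5 fell by 0.77 ± 0.03 on the log2 scale (SE, n = 3 per group, edgeR adjusted p = 4.39e-43). In Hth83 it had 3045, 2726 and 3384 CPM in CAP libraries, against 3919.6, 3774 and 3899 CPM in Control libraries. The CAP libraries were all lower but spread more widely, and it fell by 0.34 ± 0.06 (edgeR adjusted p = 0.000105). In Cal27 it had 2507, 2418 and 2337 CPM in CAP libraries, against 2696, 2739 and 2781 CPM in Control libraries. The groups did not overlap and the fitted level was 0.884 times that of Control (log2 fold change -0.18 ± 0.03, edgeR adjusted p = 8.41e-06), but the call was lost in the joint fit (0.0552) and on TPM. In A375 it had 649.8, 521 and 599 CPM in CAP libraries, against 655, 601 and 591 CPM in Control libraries. These groups overlapped (log2 fold change -0.06 ± 0.09, edgeR adjusted p = 0.617), and without CAP replicate 2 the value was 0.02.
SLC3A2 fell in all 4 lines, least in Fadu, and in each line the groups did not overlap. It had 880.2, 772 and 945 CPM in CAP libraries of Hth83, against 1139, 1093 and 1198 CPM in its Control libraries, and 1056, 1132 and 1112 CPM in CAP libraries of Cal27, against 1443, 1534 and 1335 CPM in its Control libraries. Its log2 fold changes were -0.40 ± 0.06 in Hth83, -0.39 ± 0.04 in Cal27, -0.33 ± 0.07 in A375 and -0.18 ± 0.03 in Fadu (edgeR adjusted p from 2.81e-08 to 0.0017), and the call in Fadu was lost in the joint fit (edgeR adjusted p = 0.0663). In Cal27 limma on log2(TPM + 1) gave -0.15 and no call (adjusted p = 0.0907).
The balance of the 2 chains moved in opposite directions. The ratio of SLC3A2 to SLC7A5 TPM averaged 0.566 ± 0.0176 in CAP libraries of Fadu, against 0.374 ± 0.00198 in its Control libraries (SD, n = 3 each). It averaged 0.487 ± 0.00621 in CAP libraries of A375, against 0.587 ± 0.00450 in Control libraries. In Cal27 the averages were 0.547 ± 0.0354 with CAP and 0.631 ± 0.0492 in Control libraries, and in Hth83 0.341 ± 0.00594 with CAP and 0.355 ± 0.0120 in Control libraries. The groups did not overlap in any line, and the two-sided exact permutation test gave p = 0.1 in each of the 4 lines (0.1 after Benjamini-Hochberg adjustment over the 4), which is the smallest p that 3 against 3 libraries allow. Counts of SLC7A5 are uncertain in so far as near-identical pseudogenes exist, although SLC7A5P1 and SLC7A5P2 were listed at 0 counts in every library.

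The cationic carriers SLC7A1 and SLC7A2 import arginine, lysine and ornithine, SLC7A1 in most cell types and SLC7A2 after induction. SLC7A1 fell in Hth83, Fadu and A375 and rose in Cal27. In Hth83 it had 245, 217 and 271 CPM in CAP libraries, against 471, 467 and 454 CPM in Control libraries. In Fadu it had 351, 338 and 314 CPM in CAP libraries, against 540.0, 533 and 531 CPM in Control libraries. Every CAP library of these lines lay well below every Control library, and the log2 fold changes were -0.93 ± 0.06 in Hth83 and -0.68 ± 0.03 in Fadu (edgeR adjusted p = 2.36e-11 and 9.86e-33). In A375 the CAP libraries ran from 193 to 206 CPM and the Control libraries from 275 to 299 CPM (-0.51 ± 0.04, edgeR adjusted p = 3.01e-12). In Cal27 it had 709, 679 and 688 CPM in CAP libraries, against 578, 588 and 638 CPM in Control libraries. The groups did not overlap there either, and SLC7A1 rose (0.20 ± 0.04, edgeR adjusted p = 1.65e-05).
SLC7A2 rose in Hth83, where the other 8 transporters fell. It had 39.1, 39.9 and 42.4 CPM in CAP libraries, against 18.4, 19.5 and 15.1 CPM in Control libraries, 2.28 times the Control level (log2 fold change 1.19 ± 0.08, edgeR adjusted p = 4.91e-13). With CAP it stood at 7.84 ± 0.337 TPM in Hth83, close in value to the 8.08 ± 0.206 TPM of untreated A375. In A375 it had 33.1, 39.4 and 36.3 CPM in CAP libraries, against 41.0, 42.3 and 41.6 CPM in Control libraries. The groups lay apart by little, and the fall (-0.19 ± 0.06, edgeR adjusted p = 0.0102) was lost without CAP replicate 1 (0.0727), in the joint fit (0.0542) and on TPM. In Cal27 SLC7A2 was low, with 3.12, 3.79 and 3.19 CPM in CAP libraries, against 2.66, 2.44 and 1.91 CPM in Control libraries. Its rise there (0.53 ± 0.20, edgeR adjusted p = 0.0311) was lost without CAP replicate 2 (0.148) or 3 (0.0508), without Control replicate 2 (0.0507) or 3 (0.128), and with no low-count filter (0.0547). In Fadu it had 4.66, 2.73 and 3.42 CPM in CAP libraries, against 3.68, 3.43 and 3.07 CPM in Control libraries, which overlapped (0.08 ± 0.19, edgeR adjusted p = 0.765), and the value was -0.15 without CAP replicate 1.

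The sodium-coupled neutral carriers SLC38A1 (SNAT1) and SLC38A2 (SNAT2) bring in glutamine and alanine against their gradients, and SLC38A2 is the one best known to respond to amino acid shortage. SLC38A2 fell in all 4 lines. In Hth83 it had 306, 306 and 324 CPM in CAP libraries, against 699, 729 and 753 CPM in Control libraries. In Fadu it had 458, 469 and 420.2 CPM in CAP libraries, against 827, 866 and 851 CPM in Control libraries. The levels with CAP were 0.429 and 0.530 times the Control levels in Hth83 and Fadu (log2 fold changes -1.22 ± 0.04 and -0.92 ± 0.03, edgeR adjusted p = 5.94e-20 and 6.18e-38). In A375 the CAP libraries ran from 627 to 652 CPM and the Control libraries from 806 to 844 CPM (-0.38 ± 0.03, edgeR adjusted p = 4.26e-11). In Cal27 the CAP libraries ran from 1418 to 1516 CPM and the Control libraries from 1723 to 1768 CPM (-0.24 ± 0.03, edgeR adjusted p = 7.65e-08). The groups did not overlap in any line on CPM, but on TPM the Cal27 levels were 1361 ± 60.5 TPM with CAP and 1367 ± 30.5 TPM in Control libraries, and limma on log2(TPM + 1) gave -0.01 (adjusted p = 0.890).
SLC38A1, which lies near SLC38A2 on chromosome 12, did not follow it in Cal27. There it had 925, 928 and 944 CPM in CAP libraries, against 667, 651 and 705 CPM in Control libraries. All CAP libraries were above all Control libraries, and SLC38A1 rose (0.47 ± 0.03, edgeR adjusted p = 3.06e-13). In Hth83 it had 355, 326 and 384 CPM in CAP libraries, against 591, 589 and 612 CPM in Control libraries, and fell (-0.75 ± 0.05, edgeR adjusted p = 1.58e-13). In Fadu the fall was smaller, with 507 to 551 CPM in CAP libraries and 613 to 618 CPM in Control libraries (-0.22 ± 0.03, edgeR adjusted p = 1.26e-09). In A375 the groups overlapped, with 266 to 301 CPM in CAP libraries and 293 to 319.6 CPM in Control libraries (-0.08 ± 0.04, edgeR adjusted p = 0.103). That A375 value passed the threshold without CAP replicate 1 (edgeR adjusted p = 0.0184), by library size (0.00181) and with a filter at a CPM of 1 (0.0405).

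**Figure D3:**
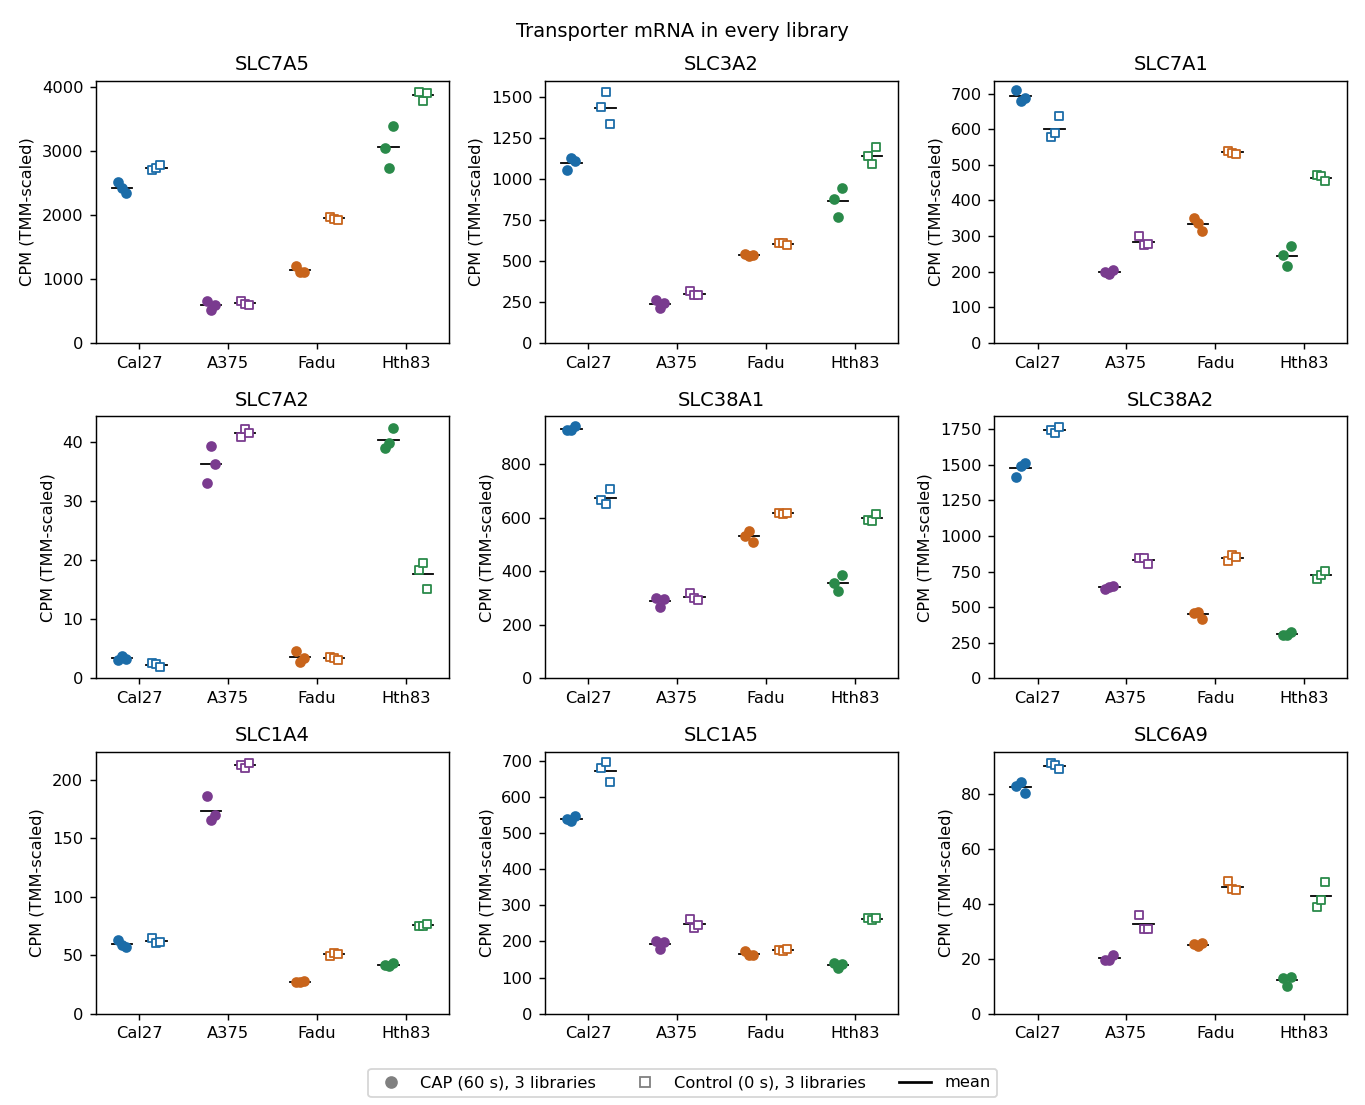
CPM, scaled within each line, of the 9 transporters in every library: filled circles are CAP, open squares Control, bars the mean of 3 libraries. SLC38A1 and SLC7A1 are higher with CAP in Cal27 and lower with CAP in Fadu and Hth83, and SLC7A2 is higher with CAP in Hth83.

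The exchangers SLC1A4 (ASCT1), which swaps serine, alanine and threonine, and SLC1A5 (ASCT2), which swaps glutamine for other neutral amino acids, belong to 1 family but differed in where they fell. SLC1A4 had 26.9, 27.2 and 27.6 CPM in CAP libraries of Fadu, against 49.7, 52.2 and 51.2 CPM in its Control libraries. In Hth83 it had 41.4, 41.0 and 43.6 CPM in CAP libraries, against 74.6, 75.0 and 76.7 CPM in Control libraries. The libraries of a group lay close together in both lines, and SLC1A4 fell by 0.91 ± 0.06 in Fadu and by 0.85 ± 0.06 in Hth83 on the log2 scale (edgeR adjusted p = 6.47e-24 and 2.56e-13). In A375, where it was most abundant, the CAP libraries ran from 165 to 186 CPM and the Control libraries from 209.9 to 215 CPM (-0.29 ± 0.04, edgeR adjusted p = 3.34e-07). In Cal27 it had 62.7, 58.7 and 57.4 CPM in CAP libraries, against 64.3, 60.6 and 61.7 CPM in Control libraries. These overlapped (-0.06 ± 0.05, edgeR adjusted p = 0.375), and the sign changed by library size (0.02) and on TPM (0.16). On log2(TPM + 1) limma called SLC1A4 higher in Cal27 (adjusted p = 0.0352).
SLC1A5 had 139.8, 125 and 138 CPM in CAP libraries of Hth83, against 264.9, 258 and 264 CPM in its Control libraries. It stood at 0.513 times the Control level (log2 fold change -0.96 ± 0.05, edgeR adjusted p = 1.70e-16). Smaller falls were measured in A375 (-0.36 ± 0.04) and in Cal27 (-0.32 ± 0.03, edgeR adjusted p = 2.63e-09), and the call in Cal27 was lost on TPM. In Fadu it had 174, 161 and 161 CPM in CAP libraries, against 177, 172 and 179 CPM in Control libraries. These groups overlapped, and the value of -0.09 ± 0.04 (edgeR adjusted p = 0.0426) lost its call without CAP replicate 2 (0.138) or 3 (0.139), without Control replicate 1 (0.126), 2 (0.0563) or 3 (0.172), and by DESeq2 (0.0515).

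The glycine carrier SLC6A9 (GLYT1) had the largest change of the 9 over the 4 lines, with a root mean square log2 fold change of 1.06. In Hth83 it had 13.1, 10.2 and 13.5 CPM in CAP libraries, against 38.8, 41.6 and 47.9 CPM in Control libraries, 0.288 times the Control level (log2 fold change -1.80 ± 0.10, edgeR adjusted p = 1.52e-14). In Fadu it had 25.4, 24.6 and 25.7 CPM in CAP libraries, against 48.6, 45.4 and 45.2 CPM in Control libraries. In A375 it had 19.7, 19.7 and 21.5 CPM in CAP libraries, against 36.2, 30.8 and 31.1 CPM in Control libraries. No CAP library reached a Control library in these 3 lines, and SLC6A9 fell by 0.88 ± 0.07 in Fadu and by 0.69 ± 0.07 in A375 on the log2 scale (edgeR adjusted p = 6.63e-22 and 3.52e-09). In Cal27, the line with the most SLC6A9 in untreated libraries, it had 83.2, 84.6 and 80.6 CPM in CAP libraries, against 91.5, 90.8 and 89.2 CPM in Control libraries. The groups did not overlap, but the fall (-0.13 ± 0.05, edgeR adjusted p = 0.0226) was lost without CAP replicate 3 (0.114) or Control replicate 1 (0.0874), in the joint fit (0.132), with no low-count filter (0.0514) and by library size (0.446), and on TPM the value was 0.10.

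Summed over the 9 genes, transporter mRNA stood at 2049 ± 181 TPM in CAP libraries of Hth83, against 2964 ± 41.2 TPM in its Control libraries (SD, n = 3 each). In Fadu the sum was 1333 ± 41.9 TPM with CAP and 2047 ± 24.0 TPM in Control libraries. In A375 it was 1229 ± 33.5 TPM with CAP and 1627 ± 54.2 TPM in Control libraries, and in Cal27 3465 ± 72.6 TPM with CAP and 3433 ± 6.11 TPM in Control libraries. The sums of the groups overlapped in Cal27 and in no other line. They are given with no test.

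The response itself differed between the lines for 8 of the 9 transporters by the interaction F test of the joint edgeR fit, as it did for 56.9% of all genes tested. SLC3A2 missed the threshold (adjusted p = 0.14), which does not show that the lines responded alike, and it passed without CAP replicate 3 of Hth83 (edgeR adjusted p = 0.0442), by library size (0.0203), with a replicate block (0.00135) and on TPM with limma (adjusted p = 0.0441). By pairs, 6 transporters differed between Cal27 and A375 (35.5% of all genes), 7 between Cal27 and Fadu (38.4%), 7 between Cal27 and Hth83 (35.0%), 4 between A375 and Fadu (36.0%), 7 between A375 and Hth83 (27.3%) and 7 between Fadu and Hth83 (35.7%).
Cal27 differed from each of the other 3 lines in SLC7A1, SLC38A1, SLC38A2, SLC1A4 and SLC6A9, Hth83 in SLC7A1, SLC7A2, SLC38A1, SLC38A2, SLC1A5 and SLC6A9, Fadu in SLC7A5, SLC38A2 and SLC1A5, and A375 in SLC38A2 and SLC1A4. SLC38A2 had the smallest interaction p of the 9 and differed between all 6 pairs of lines. Its log2 fold change in Cal27 exceeded that in Hth83 by 0.98 ± 0.05, that in Fadu by 0.66 ± 0.05 and that in A375 by 0.16 ± 0.05, and that in A375 exceeded that in Hth83 by 0.82 ± 0.05 (SE, edgeR adjusted p of at most 0.0157). For SLC38A1 the log2 fold change in Cal27 exceeded that in Hth83 by 1.22 ± 0.06, that in Fadu by 0.67 ± 0.06 and that in A375 by 0.57 ± 0.06 (SE, edgeR adjusted p of at most 5.76e-10). For SLC7A1 the excess was 1.13 ± 0.07 over Hth83, 0.87 ± 0.07 over Fadu and 0.73 ± 0.07 over A375 (edgeR adjusted p of at most 7.22e-10).
Differences from Hth83 were also wide in SLC6A9, SLC1A5 and SLC7A2. The log2 fold change of SLC6A9 was higher in Cal27, A375 and Fadu than in Hth83 by 1.67 ± 0.10, 1.08 ± 0.11 and 0.94 ± 0.11, and that of SLC1A5 by 0.65 ± 0.06, 0.59 ± 0.06 and 0.90 ± 0.06. For SLC7A2 the differences of those lines from Hth83 had the other sign, -0.65 ± 0.20, -1.40 ± 0.13 and -1.11 ± 0.18. For SLC7A5 the differences were 0.58 ± 0.10 for Cal27 minus Fadu, 0.67 ± 0.10 for A375 minus Fadu and -0.41 ± 0.10 for Fadu minus Hth83 (edgeR adjusted p = 9.94e-05, 2.56e-05 and 0.00266). SLC1A4 did not separate Fadu from Hth83 (difference -0.04 ± 0.07, adjusted p = 0.756) and differed between all other pairs.

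The genes around the transporters were described by counts on chosen lists, each against the medians and shares of all genes given above. By line, 21.9% to 26.3% of all genes tested were higher and 23.2% to 27.0% lower. The ATF4 arm of the amino acid response is a list of 29 genes with the kinase GCN2 (EIF2AK4), ATF4 itself and its targets in synthesis and stress. In Hth83 22 of 28 tested genes fell and 6 rose (median log2 fold change -1.37), in A375 22 of 28 fell and 3 rose (-0.97), in Fadu 23 of 29 fell and 3 rose (-0.63) and in Cal27 19 of 29 fell and 5 rose (-0.28). On TPM 8 fell and 9 rose in Cal27. ATF4 mRNA averaged 461 CPM with CAP and 913 CPM in Control libraries of Hth83, and its log2 fold change was -0.99 ± 0.05 there, -0.61 ± 0.03 in Fadu, -0.40 ± 0.04 in A375 and -0.31 ± 0.03 in Cal27.
Among genes of the list with at least 5 CPM in the higher group, the 2 largest falls were those of CHAC1, which degrades glutathione, and ASNS, the asparagine synthetase, in Hth83 and A375, and those of CHAC1 and DDIT3, the stress factor CHOP, in Fadu and Cal27. ASNS averaged 0.641 ± 0.170 CPM with CAP and 16.7 ± 1.85 CPM in Control libraries of Hth83 (log2 fold change -4.71 ± 0.18) and 3.37 ± 0.458 CPM with CAP and 20.9 ± 1.03 CPM in Control libraries of A375 (-2.62 ± 0.11). ASNS also fell in Fadu (-1.24 ± 0.08) and missed the threshold in Cal27, with a log2 fold change of 0.28 ± 0.13 (edgeR adjusted p = 0.0811). CHAC1 had log2 fold changes of -4.46 ± 0.13 in Hth83, -2.62 ± 0.08 in A375, -2.56 ± 0.25 in Fadu and -1.01 ± 0.05 in Cal27. DDIT3 had log2 fold changes of -3.997 ± 0.09 in Hth83, -2.23 ± 0.10 in A375, -1.64 ± 0.08 in Fadu and -1.08 ± 0.06 in Cal27.
Members of the list also rose. With the same minimum of 5 CPM the largest rises were those of ATF5, a factor related to ATF4, in A375 (1.36 ± 0.13), ALDH1L2, a mitochondrial folate enzyme, in Cal27 (0.53 ± 0.05), PPP1R15A, which helps to restore translation, in Fadu (0.47 ± 0.05) and EIF2AK4 in Hth83 (0.36 ± 0.05).

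Other amino acid transporters, 22 genes outside the 9 listed as plasma-membrane ones, had mostly higher calls in 3 lines. The list includes SLC36A1, SLC36A4 and SLC38A10, and the place of its products in these cells was not tested. In Hth83 8 of 15 tested rose and 2 fell (median 0.29), in Fadu 8 of 14 rose and 1 fell (0.27) and in Cal27 8 of 16 rose and 1 fell (0.30), whereas in A375 5 of 16 rose and 7 fell (-0.24). Of all genes tested, 25.9%, 26.3%, 21.9% and 25.7% were higher in Hth83, Fadu, Cal27 and A375, and 24.2%, 27.0%, 23.2% and 24.8% lower. On TPM 7 of the list were higher and 2 lower in Hth83, and 5 and 0 in Fadu. In Cal27 9 were higher and 0 lower on TPM, and in A375 3 and 6. SLC43A2, a carrier of large neutral amino acids, averaged 25.4 ± 1.51 CPM with CAP and 13.9 ± 1.77 CPM in Control libraries of Hth83 (log2 fold change 0.87 ± 0.09). It also rose in Fadu (1.07 ± 0.08) and A375 (1.08 ± 0.13). SLC7A6, a light chain that also pairs with CD98, averaged 37.7 ± 2.78 CPM with CAP and 23.9 ± 4.93 CPM in Control libraries of Cal27 (0.66 ± 0.12). It also rose in A375 (0.72 ± 0.08), Fadu (0.36 ± 0.07) and Hth83 (0.29 ± 0.08). The glutamate carrier SLC1A3 rose in Hth83 (1.40 ± 0.10) and Cal27 (0.28 ± 0.07). The taurine carrier SLC6A6 rose in Cal27 (0.82 ± 0.06), Hth83 (0.65 ± 0.07) and Fadu (0.40 ± 0.07) and fell in A375 (-0.16 ± 0.04). SLC43A1, the relative of SLC43A2, averaged 2.997 ± 0.960 CPM with CAP and 10.6 ± 2.32 CPM in Control libraries of Hth83 (-1.83 ± 0.20).

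The lysosomal transporters, the sensors of mTORC1 and the enzymes that use imported amino acids had mixed calls. Of all genes tested, 25.9% were higher and 24.2% lower in Hth83, and 26.3% and 27.0% in Fadu. The shares were 25.7% and 24.8% in A375, and 21.9% and 23.2% in Cal27. The counts of mTORC1 sensors in Hth83, Fadu and Cal27 lie near these shares. The counts of enzymes that rose in Hth83, A375 and Cal27 do so too. Of 8 lysosomal transporters, 1 rose and 3 fell in Hth83, 4 rose and 2 fell in Fadu, 5 rose and 0 fell in A375, and 3 rose and 1 fell in Cal27. On TPM the counts were 1 higher and 1 lower in Fadu and 3 higher and 0 lower in A375. MFSD12, which carries cysteine into melanosomes and lysosomes, averaged 309.9 ± 9.13 CPM with CAP and 558 ± 28.6 CPM in Control libraries of Hth83 (log2 fold change -0.85 ± 0.05). MFSD12 also fell in Cal27 (-0.51 ± 0.04) and rose in Fadu (0.23 ± 0.06). The arginine-sensing SLC38A9 fell in Hth83 (-0.54 ± 0.07) and rose in Cal27 (0.26 ± 0.07). Amino acid sensing by mTORC1 is a list of 35 genes. In Hth83 8 of 35 tested rose and 9 fell, and in Fadu 10 of 33 rose and 10 fell. In A375 18 of 34 rose and 4 fell, and in Cal27 9 of 34 rose and 10 fell. These sensor counts moved with the scaling, to 17 higher and 3 lower in Fadu and 13 higher and 7 lower in A375 by library size, and to 15 higher and 1 lower in Cal27 and 7 higher and 5 lower in A375 on TPM. The sestrin SESN3 averaged 11.9 ± 1.75 CPM with CAP and 25.1 ± 0.555 CPM in Control libraries of Fadu (-1.08 ± 0.09). SESN3 also fell in A375 (-0.50 ± 0.06) and rose in Cal27 (0.81 ± 0.13) and Hth83 (0.44 ± 0.11). The leucyl-tRNA synthetase LARS1 fell in Hth83 (-0.72 ± 0.04) and A375 (-0.42 ± 0.03) and rose in Cal27 (0.29 ± 0.04) and Fadu (0.10 ± 0.03).
The enzyme list holds 23 genes. In Hth83 6 of 20 tested rose and 8 fell, and in Fadu 9 of 21 rose and 9 fell. In A375 6 of 20 rose and 7 fell. In Cal27 5 of 21 rose and 10 fell, while 9 were higher and 5 lower there on TPM. ODC1, which turns ornithine into the polyamine putrescine, averaged 300.4 ± 11.6 CPM with CAP and 111 ± 1.94 CPM in Control libraries of Fadu (1.44 ± 0.04). It fell in Hth83 (-0.31 ± 0.05). Spermidine synthase SRM rose in Hth83 (0.63 ± 0.06), Fadu (0.73 ± 0.05) and A375 (0.72 ± 0.05) and fell in Cal27 (-0.52 ± 0.04). In Hth83 the arginase ARG2 averaged 4.60 ± 0.793 CPM with CAP and 32.0 ± 1.64 CPM in Control libraries (-2.80 ± 0.11), and the alanine aminotransferase GPT2 fell as well (-1.73 ± 0.06).

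**Figure D4:**
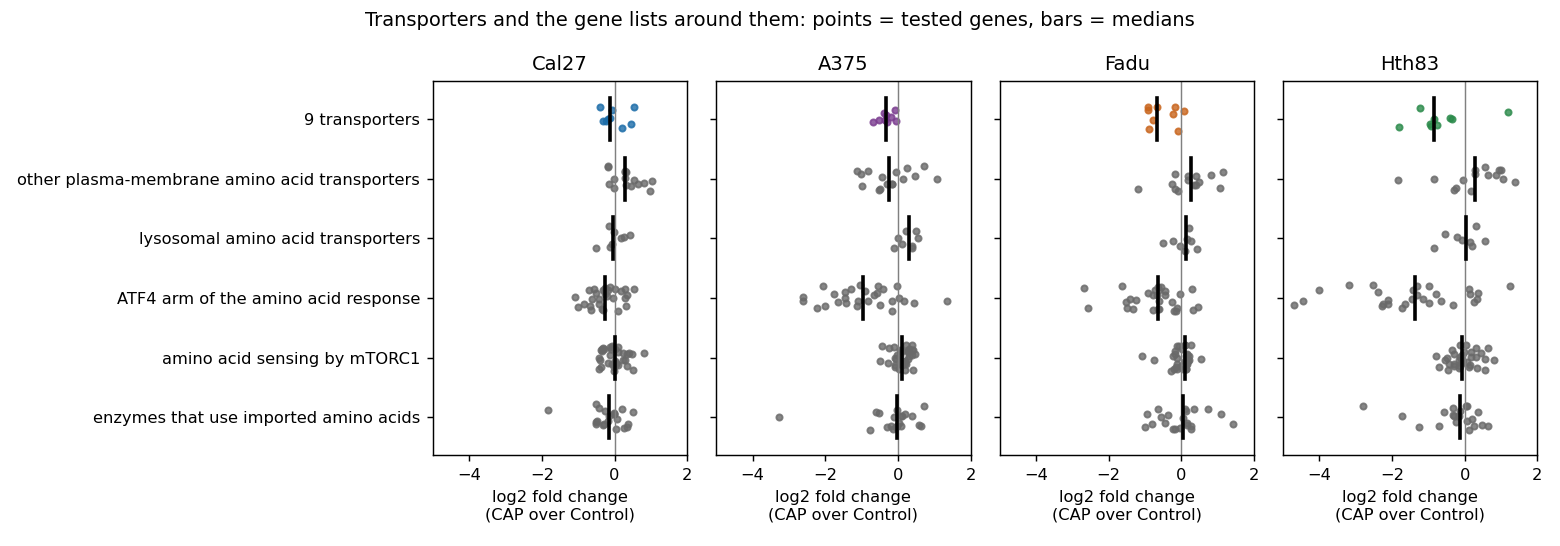
Log2 fold change, CAP over Control (horizontal axis), of every tested gene of the 9 transporters and of the 5 lists around them, in each line; each point is 1 gene and black bars are medians. The ATF4 arm lies furthest left in Hth83 (median -1.37) and A375 (-0.97), and the other plasma-membrane transporters lie right of 0 in 3 lines.

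Genes with a like pattern were found by the smallest root mean square difference of the 4 log2 fold changes, over 10569 genes tested in all 4 lines with at least 10 CPM in the highest group. For SLC7A5 the nearest were the zinc transporter SLC39A11 (0.0494), ADGRG1 (0.0789), CHP1 (0.0846), PPM1B (0.0951) and SAYSD1 (0.0969), none of them an amino acid carrier. For SLC6A9 they were ERRFI1 (0.216), PHGDH (0.221), LMO4 (0.224), GPT2 (0.234) and PSAT1 (0.248). PHGDH and PSAT1 are enzymes of serine synthesis, and serine is the source of glycine in cells. PHGDH had log2 fold changes of -1.44, -0.63, -0.66 and -0.05 in Hth83, Fadu, A375 and Cal27, beside -1.80, -0.88, -0.69 and -0.13 for SLC6A9. PSAT1 had -1.73, -0.65, -0.55 and 0.28 in the same lines. The likeness rests on 4 values per gene and is a description.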

How the data were processed

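RNA of 24 libraries, 3 per group, was sequenced on an Illumina instrument, and the submitters' processing notes name HISAT2 as the aligner and GRCh38 as the genome build. For each line the authors deposited raw counts per gene and TPM. The annotation, the counting tool, its strand setting, the HISAT2 version and the gene lengths used for TPM are unstated in what was used here. Symbols came from a name table that matched 61369 of the 61533 identifiers.

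Counts were tested with edgeR 4.0.16 in R 4.3.3 within each line: filterByExpr (minimum count 10, minimum total 15), TMM scaling, the quasi-likelihood test with robust dispersion, and Benjamini-Hochberg adjustment over all genes tested (threshold 0.05, no fold minimum). One fit of 8 group means gave the interaction test, the pairwise differences and the contrasts of untreated lines. Levels between genes use the deposited TPM. All members and lists were chosen with earlier results of these data known. List genes were named by rule: in each line the 2 largest rises and falls past the threshold with at least 5 CPM in the higher group, of which a part is given here, and other line values of a named gene, ATF4 included, were chosen after they were seen.

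Alternatives were RLE size factors, library size alone, other low-count filters, DESeq2 1.42.0, dispersion without the robust setting, a replicate block, the joint fit, omission of each library, and limma 3.58.1 on log2(TPM + 0.1) or log2(TPM + 1), the second also with its minimum of 1 TPM in 3 libraries dropped. The length check with GENCODE 29 was added after seeing the data. The tests were tried on simulated counts with known changes, where limma on TPM made more false calls than edgeR. These false calls were not split by the count level of the genes. Far fewer genes were changed in the simulation than were called in the data, and their signs were drawn at random. The simulation thus cannot tell whether TMM or TPM scaling is right for these libraries. Same-numbered libraries did not deviate together (correlations of -0.0226 to 0.0355 over 12 pairs), so the numbers were not treated as pairs.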

Additional observations from a re-analysis of the deposited data

Results flagged for a closer look

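The response to CAP differed between the 4 lines for 8 of the 9 transporters, by the interaction F test of the joint edgeR fit with Benjamini-Hochberg adjustment over 23642 genes, of which 56.9% passed. The adjusted p was 4.86e-22 for SLC38A2, 3.09e-19 for SLC38A1, 8.60e-18 for SLC6A9, 1.13e-16 for SLC1A5, 4.04e-16 for SLC1A4, 2.75e-14 for SLC7A1, 6.73e-12 for SLC7A2 and 5.08e-05 for SLC7A5. Signs differed between lines for SLC7A1 and SLC38A1, which rose in Cal27 and fell in Hth83 and Fadu, and for SLC7A2, which rose in Hth83 and fell in A375. For the other 5 the lines differed in size, with no line past the threshold in the opposite direction by TMM scaling. Each line had its own untreated libraries and its own table, so line and table cannot be told apart in any line. For Fadu the medium cannot be told apart from them either.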

How the results depend on the processing

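Of the 36 pairs of a transporter and a line, 22 kept their direction and their side of the threshold under every alternative run, and 14 did not. Results of Hth83 changed least: 152 of its values stayed the same, and 1, SLC7A5 by limma on log2(TPM + 1) with no filter, missed the threshold (adjusted p = 0.0888). In Cal27 the count of transporters past the threshold was 8, but 3 by limma on log2(TPM + 1), 3 on log2(TPM + 0.1) and 2 on log2(TPM + 1) with no filter, with 0 lower in each of these. The joint fit gave 3 lower there. In A375 the count of all genes past the threshold was 9900, and 6057 by limma with no filter. In Cal27 on log2(TPM + 1) the signs turned for SLC7A5 (0.0559), SLC1A4 (0.165) and SLC6A9 (0.103), with the same values without a filter. On log2(TPM + 0.1) they were 0.0559, 0.172 and 0.106, and SLC1A4 also turned by library size (0.0203). Limma called SLC1A4 higher on log2(TPM + 1) and on log2(TPM + 0.1) (adjusted p = 0.0352 in each), but not with no filter (adjusted p = 0.0559). Others that turned had missed the threshold or had a narrow call: SLC1A5 in Fadu by library size (0.0178), SLC7A5 in A375 (-0.134 to 0.0220 with 1 library left out) and SLC7A2 in Fadu (-0.147 to 0.247).

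Among log2 ratios of untreated lines, limma on log2(TPM + 1) turned SLC7A1 (-0.0451) and SLC38A1 (-0.0825) for Cal27 over Fadu, SLC38A1 for Cal27 over Hth83 (-0.0806), SLC38A2 for A375 over Fadu (0.0798), and SLC38A1 (0.00195) and SLC6A9 (0.0746) for Fadu over Hth83. Library size alone turned SLC38A2 for A375 over Fadu (0.0601), and SLC38A1 (0.0159) and SLC6A9 (0.0922) for Fadu over Hth83. Leaving out 1 library turned ratios near 0, which ranged from -0.0313 to 0.0129 for SLC38A2 for A375 over Fadu, from -0.00881 to 0.0474 for A375 over Hth83, from -0.00142 to 0.0245 for SLC7A1 for Fadu over Hth83 and from -0.136 to 0.0181 for SLC6A9 there. Calls lost with the sign kept on log2(TPM + 1) were those of SLC1A4 for Cal27 over Fadu (0.0680, adjusted p = 0.123), SLC3A2 (0.0726, 0.397) and SLC7A1 (0.114, 0.116) for Cal27 over Hth83 and SLC1A5 for A375 over Hth83 (-0.0191, 0.744). SLC1A5 in that pair was also lost by library size (-0.0229, edgeR adjusted p = 0.634), and SLC38A1 for Fadu over Hth83 by RLE size factors (-0.0797, edgeR adjusted p = 0.0958), where SLC38A2 passed (0.0986, 0.0155). The cause of these changes was not tested.

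With each library left out in turn, the count of transporters past the threshold was 6 to 8 in Cal27, 7 in A375, 7 to 8 in Fadu and 9 in Hth83. The replicate block gave the same 8, 7, 8 and 9 transporters by count in Cal27, A375, Fadu and Hth83, moved the count of all genes to 7704, 9946, 10183 and 8652 from 7832, 9900, 10200 and 8657, and gave 9 transporters in place of 8 in the interaction test, where SLC3A2 passed (adjusted p = 0.00135).

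Depth limits SLC7A2 in Cal27 and Fadu most, with 1.91 to 4.66 CPM per library, and the lengths behind TPM limit any ranking of levels.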
